A study of Drosophila melanogaster with 11 samples.

Results

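Circular RNAs (circRNAs) with a short genomic span were examined in total RNA of heads of male CantonS (CS) Drosophila melanogaster. A short circRNA was an entry of the deposited table whose 2 ends lay 50 to 699 nt apart. It had a named host gene other than mbl and lay outside the fourth chromosome. This rule used no measured level. The temperature analysis of the paper kept circRNAs counted above 3 in every replicate of at least 1 condition. The deposited table may therefore already be selected by level. The rule gave 329 of the 1928 circRNAs of the table, from 236 host genes, with 110 on 2L, 58 on 2R, 50 on 3L, 71 on 3R and 40 on X. All flies were wild type and were grown at 25 °C under 12 h of light and 12 h of dark. Males were taken from mated flies under CO2, pooled from several vials per replicate and left for 1 day before the exposures. The labels name heads, while part of the design text speaks of brains. Heads were frozen after 10 days at 18 °C (18C, 3 libraries), 25 °C (25C, 2 libraries) or 29 °C (29C, 3 libraries), or just before these exposures (pre-treatment, 3 libraries). The pre-treatment flies were therefore also younger than the exposed flies, so in each comparison with them exposure and age cannot be told apart. In whole heads, fewer cells of a type and less RNA per cell cannot be told apart either.

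CircRNAs arise by backsplicing, in which the spliceosome joins a downstream 5′ splice site to an upstream 3′ splice site of the same transcript, and they compete with the linear transcript for the same exons. Their closed ends protect them from exonucleases, they are long-lived, and in flies they are most abundant in neural tissue, where they accumulate with age. A backsplice is recognised in sequencing data only by reads across the head-to-tail junction. Each value below therefore counts junction reads and is not scaled to the length of the circle, while the linear row of a host counts reads over the whole gene. Whether span affects how readily a junction is detected was not tested.

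Most short circRNAs had the exon structure of a backsplice. In dm6, 249 of the 329 (75.7%) began and stopped at annotated exon boundaries, 15 did so at 1 end and 65 at neither. The corresponding share was 89.4% of 670 circRNAs with a span of 700 to 1999 nt (middle) and 90.4% of 617 with a span of 2000 nt or more (long). Of the 248 short circRNAs whose ends belonged to 1 annotated transcript, 102 were a single exon, 128 held 2 exons, 16 held 3 and 2 held 4. Single exons thus made up 41.1% of short, 23.3% of middle and 2.74% of long circRNAs. The enclosed exons were coding only in 161, 5′ UTR and coding in 67, 5′ UTR only in 14, coding and 3′ UTR in 4 and non-coding in 2. The annotated start codon lay inside 68 of the 248 (27.4%), compared with 33.5% of middle and 36.2% of long circRNAs. The introns beside short circRNAs had median lengths of 4468.5 nt upstream and 3361.5 nt downstream, compared with those of middle circRNAs (4209 and 2182 nt) and long circRNAs (4052 and 2840 nt). These shares describe the annotation and were not tested. The members nearest the limits of the rule were circRNAs of 51 nt in CG17108 and brp and the 699-nt circRNA of RpS27A (mean 2.94 normalized reads), and just outside lay circRNAs of 48 nt in CG17108 and ninaE and of 700 nt in CG34398 and eag.

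One host stood apart. CG17108 (FBgn0032285, chr2L:10692940-10694103, minus strand) gave 54 of the 329 short circRNAs (16.4%), while 203 hosts gave 1, 25 gave 2 and the other 7 hosts with 3 or more gave 3 or 4. The annotation gives CG17108 a single exon and hence no splice site. All 54 lay inside its coding sequence, in a stretch of 624 nt at chr2L:10693271-10693894, none had an end at an annotated exon end, and the span of all 54 was a multiple of 3. The table lists these 54 entries as circRNAs, but whether they are backsplices cannot be settled from it. The share of circRNA signal and the median changes for 29C vs 18C and against pre-treatment heads are therefore also given without CG17108. The 54 circRNAs used 23 starts and 21 ends, and 10 of the starts were shared by 2 or more. Of the 275 short circRNAs of other hosts, 249 (90.5%) used exon boundaries at both ends, and the span was a multiple of 3 in 103 (37.5%). Only 4 of these 275 lay within 1 exon with no annotated end, in IA-2 (57 nt), CG7299 (72 nt), brp (51 nt) and CG32486 (125 nt). The brp circRNA (chr2R:9523361-9523411, mean 90.0 normalized reads), in the gene of the active-zone scaffold Bruchpilot, was the most abundant of the 4, and the other 3 had means of 8.22, 7.26 and 7.87.

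**Figure D1:**
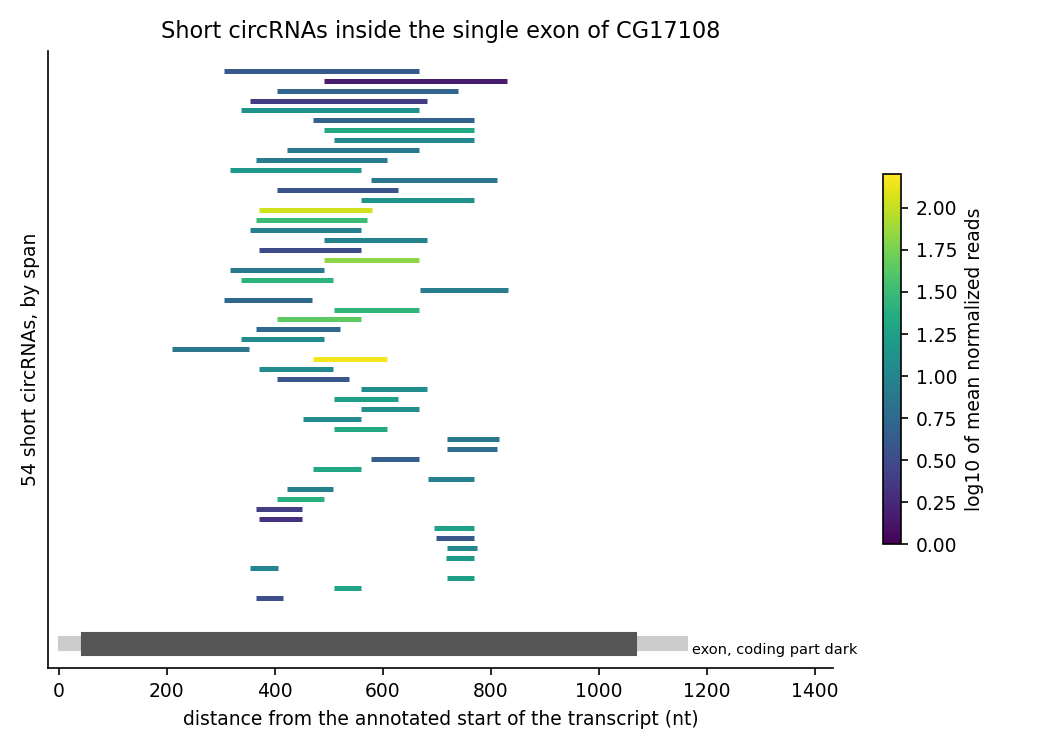
The 54 short circRNAs of CG17108, each drawn as a bar from its first to its last base, with distance from the annotated transcript start (nt) on the x axis, bars ordered by span on the y axis, and colour for the log10 of the mean normalized reads over 11 libraries. The bars overlap one another between 209 and 832 nt and lie within the coding part (dark) of the single exon.

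The libraries held 32064412 to 123404737 reads in the table, counting circRNAs and linear genes, and 12451 to 65564 reads of circRNAs, so 3 reads, the upper limit for a count of 0, equal 1.42 to 5.98 normalized reads. These limits cover counting error only. Pre-treatment replicate 2 stood apart, with a summed circRNA signal of 13271 normalized reads against 29732 to 44203 in the other 10 libraries, and 184 of the 329 short circRNAs were detected in it against 273 to 327. Pre-treatment comparisons are therefore also given without it. Markers of head tissue were abundant in every library, at 903277 to 1483760 normalized reads for the rhodopsin gene ninaE, 18682 to 25728 for the neuronal gene elav and 4953 to 6663 for the glial gene repo. Setting each library to the same circRNA total shifted the median log2 fold change of all circRNAs by -0.25 for 29C vs 18C, -0.47 for 25C vs pre-treatment, -0.56 for 29C vs pre-treatment, -0.30 for 18C vs pre-treatment, -0.11 for 29C vs 25C and 0.13 for 18C vs 25C.

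Short circRNAs were of low to moderate abundance. The mean over 11 libraries had a median of 9.69 normalized reads (lower and upper quartiles 5.05 and 19.3), close to that of middle circRNAs (9.36) and above that of long circRNAs (6.89). A mean of 10 or more was reached by 159 members, of 50 or more by 28 and of 100 or more by 10. Their summed signal was 6147, 2206 and 8978 normalized reads in pre-treatment heads, 6669, 5352 and 8096 at 18C, 4134 and 8408 at 25C and 5590, 7452 and 5873 at 29C. The groups overlapped in this sum, and the spread within the pre-treatment and 25C groups was at least as wide as the differences between group means. As a share of all circRNA signal, short circRNAs held 14.3, 16.9 and 14.9% in the 29C libraries and 18.8, 18.0 and 21.9% in the 18C libraries, which did not overlap (mean 15.4% at 29C and 19.6% at 18C, exact two-sided permutation test p = 0.1, the smallest p that 3 against 3 allows). Without CG17108 the share was 13.4, 14.9 and 13.7% at 29C and 16.3, 16.1 and 17.3% at 18C (p = 0.1, exact permutation test), again without overlap. Only this pair of groups was tested. The share of all short circRNAs was 12.5 and 19.8% at 25C and 19.4, 16.6 and 25.5% in pre-treatment heads. Both of these ranges overlapped those of 29C and of 18C. Without CG17108 it was 11.5 and 16.9% at 25C and 16.5, 16.4 and 18.1% in pre-treatment heads.

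**Figure D2:**
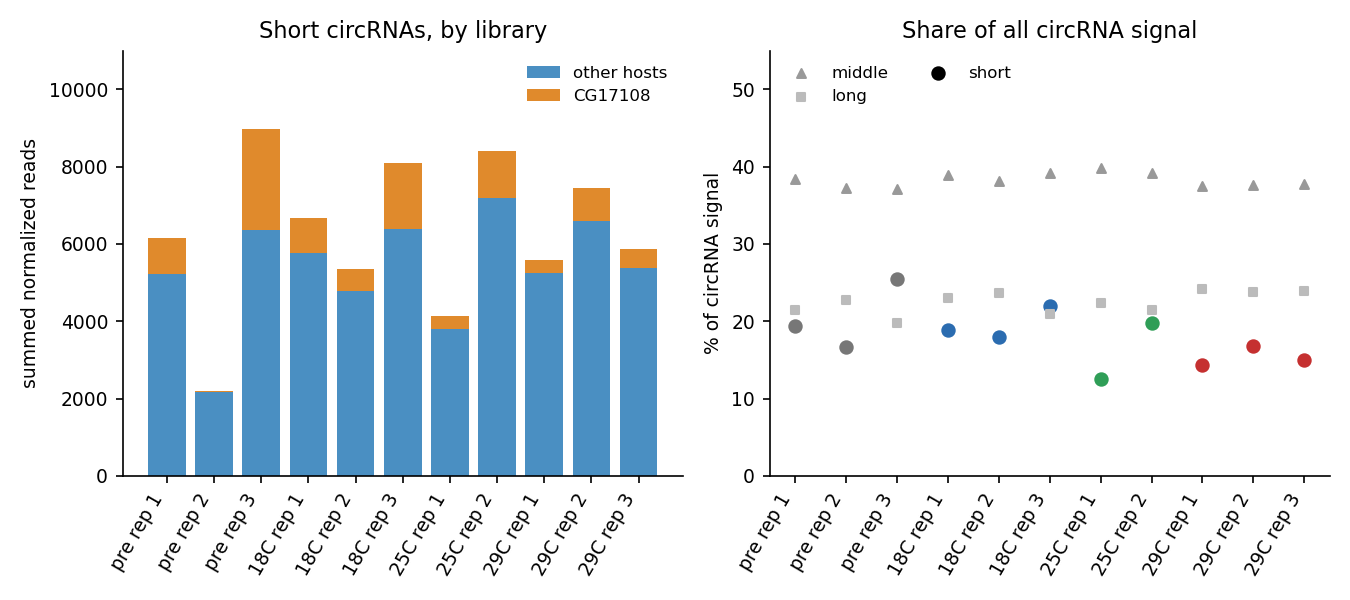
Left, summed normalized reads of short circRNAs in each library (bars from 0), divided into the 54 of CG17108 and the 275 of other hosts. Right, the percentage of all circRNA signal held by short circRNAs (circles coloured by group), middle circRNAs (triangles) and long circRNAs (squares). Pre-treatment replicate 2 has the lowest sum (2206), and the 29C libraries hold 14.3% to 16.9% against 18.0% to 21.9% at 18C. The 25C libraries hold 12.5% and 19.8%.

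The circRNAs of CG17108 were uneven between libraries. The 54 summed to 935, 26.2 and 2612 normalized reads in pre-treatment heads, 903, 576 and 1709 at 18C, 328 and 1230 at 25C and 345, 847 and 501 at 29C. The highest library was 99.6 times the lowest, compared with 3.29 times for short circRNAs of other hosts. In pre-treatment replicate 2, 49 of the 54 were at 0 and the rest held 23 reads, although the linear CG17108 row stood at 247599 normalized reads there, within the range of 178602 to 609367 of the other libraries. The summed junction reads were 0.106 per 1000 linear reads in pre-treatment replicate 2 and 1.49 to 4.29 per 1000 in the other 10 libraries. The most abundant circRNA of CG17108 (138 nt, chr2L:10693496-10693633, minus strand) had 124, 0 and 626 normalized reads in pre-treatment heads, 77.5, 42.2 and 290.0 at 18C, 21.1 and 215 at 25C and 23.8, 128 and 39.8 at 29C. A neighbour of 210 nt (chr2L:10693523-10693732) had 139.8, 0 and 223 normalized reads in pre-treatment heads, 109.8, 73.0 and 237 at 18C, 50.3 and 162 at 25C and 50.1, 87.1 and 65.4 at 29C. Both were at 0 in pre-treatment replicate 2 and highest in pre-treatment replicate 3, and their groups overlapped. Of the 54, 46 passed the filter on low values, and their median log2 fold change for 29C vs 18C was -0.85 (-0.44 without 18C replicate 3 and -1.14 without 18C replicate 2), while the linear CG17108 row averaged 211362 normalized reads at 29C and 425325 at 18C.

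Of the 10 most abundant short circRNAs, 8 came from other hosts. The highest was the single coding exon of Pka-C3 (chr3L:15946908-15947579, minus strand), the gene of a catalytic subunit of cAMP-dependent protein kinase, with 146, 66.1 and 219 normalized reads in pre-treatment heads, 182, 151 and 212 at 18C, 211 and 257 at 25C and 216, 244 and 192 at 29C. The circRNA of Dbp80 (chr3L:27331994-27332346, plus strand), a DEAD-box RNA helicase gene, had 160.3, 39.9 and 221 normalized reads in pre-treatment heads, 123, 95.3 and 159 at 18C, 114 and 209 at 25C and 165, 234 and 156 at 29C. In both, pre-treatment replicate 2 was the lowest library and the exposed groups overlapped. A 60-nt exon of Uhg3 (chr2L:20648189-20648248, plus strand), a non-coding host gene of small nucleolar RNAs, had 174, 44.5 and 211 normalized reads in pre-treatment heads, 125, 133 and 138 at 18C, 124 and 158 at 25C and 166, 205 and 160.1 at 29C. The remaining hosts were CG17684 (mean 152), CG34370 (126), p120ctn, the p120-catenin gene of adherens junctions (121), uex, a gene of the CNNM family of magnesium transporters (118), and foxo, the forkhead factor of insulin signalling (109). None of these 8 was called in the comparison of 29C with 18C.

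Junction reads of short circRNAs were few beside the linear row of the host. That row counts reads over the whole gene, so the ratio does not give the abundance of a circle relative to its linear transcript. The mean junction signal per 1000 linear reads of the host had a median of 0.697 over all 329, with quartiles of 0.172 and 1.83. For the 275 circRNAs of hosts other than CG17108 the median was 0.989, and for the 54 of CG17108 it was 0.0301, beside a linear CG17108 row of 328923 normalized reads on average. A ratio above 10 per 1000 was found in 16 members. Uhg3 was highest, with 269 junction reads per 1000 linear reads (linear mean 555), followed by Damm, a caspase gene, with 165 (linear mean 97.0). Next came Pka-C3 (31.2), Haspin, the gene of a histone kinase (26.1), the homeobox gene hbn (25.5), Sema2b, the gene of a secreted semaphorin (20.7), Dbp80 (20.6), CARPB, the gene of a carbonic anhydrase-related protein (18.8), CG34370 (17.8) and CCKLR-17D1, a receptor gene for sulfakinin peptides (16.8). Expressed per linear read per kilobase of exon, the ratio of the Damm circRNA (0.335) exceeded that of Uhg3 (0.225), so the order of these 2 depended on host length. The Damm circRNA had 1 end away from an annotated exon end.

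**Figure D3:**
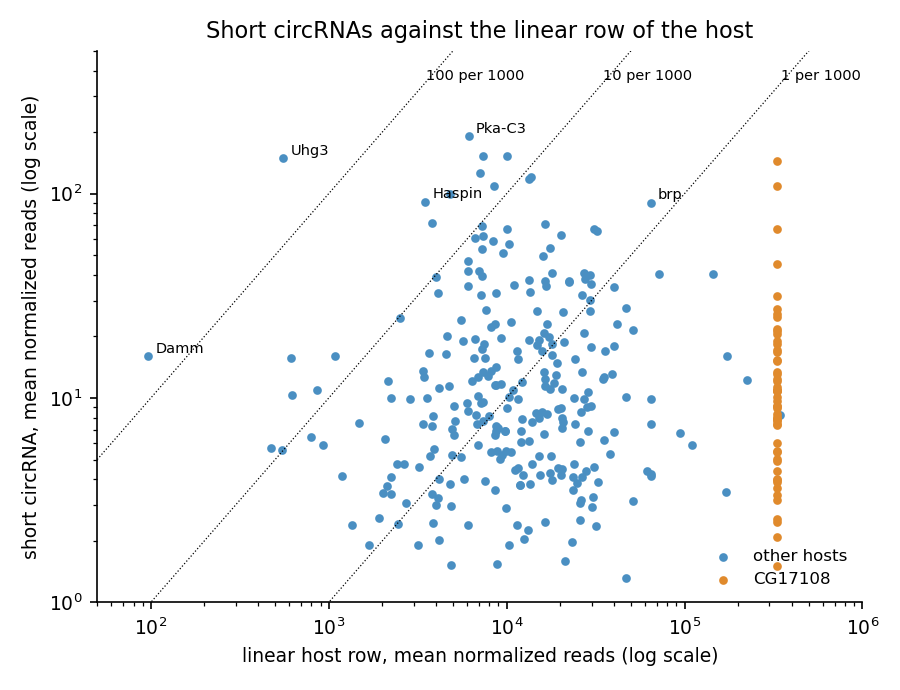
Mean normalized reads of each of the 329 short circRNAs (y axis, log scale) against the mean of the linear row of its host (x axis, log scale), with dotted lines at 1, 10 and 100 junction reads per 1000 linear reads. Uhg3 and Damm lie above 100 per 1000, and the 54 circRNAs of CG17108 (orange) share 1 host value at the right.

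Heads kept at 29C were first compared with heads kept at 18C, which asks which short circRNAs differ after 10 days of warmth or cool. The limma test with Benjamini-Hochberg adjustment over all 1767 circRNAs tested called 4 of 313 short circRNAs higher (background over all circRNAs 2.43%) and 10 lower (background 1.47%) at 29C. With only these 2 groups in the fit the 14 calls became 62, of which 26 were higher and 36 lower. Over all 1767 circRNAs that fit called 291 higher and 134 lower, against 43 and 26 in the main fit. The median log2 fold change of short circRNAs was -0.15, or -0.04 without CG17108, compared with 0.18 for middle, 0.37 for long and 0.18 for all circRNAs. Without 18C replicate 2 the median of short circRNAs was -0.25, without 29C replicate 1 it was -0.09 and without 29C replicate 2 it was -0.26. With each library at the same circRNA total the medians of the 5 sets were -0.39, -0.28, -0.07, 0.12 and -0.06, so the order of the 3 span classes was kept while the sign for middle and all circRNAs turned. The 29C libraries lay wholly above the 18C libraries in 52 short circRNAs (background 28.1%) and wholly below in 62 (background 14.3%). Of the 14 calls, 9 (2 higher and 7 lower) passed the filter on low values only through the group in which they were higher, and 11 had a mean under 10 normalized reads. Only 3 called members had a mean of 10 or more. Some linear markers of single tissues moved with the same groups, such as the photoreceptor channel gene trp (mean 200628 normalized reads at 29C and 86009 at 18C), the fat body gene to (26087 at 29C and 153469 at 18C) and the flight muscle actin Act88F (92.2 at 29C and 788 at 18C). Another fat body gene, Lsp2 (2669 at 29C and 4791 at 18C), and another flight muscle gene, fln (118 at 29C and 147 at 18C), differed less. The glial transporter genes Gat (3628 at 29C and 7661 at 18C) and Eaat1 (20534 at 29C and 30763 at 18C) had lower means at 29C too, the glial gene repo stood at 5139 at 29C and 6569 at 18C and the neuronal gene elav at 24932 at 29C and 21697 at 18C, and their part in the circRNA values was not tested.

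**Figure D4:**
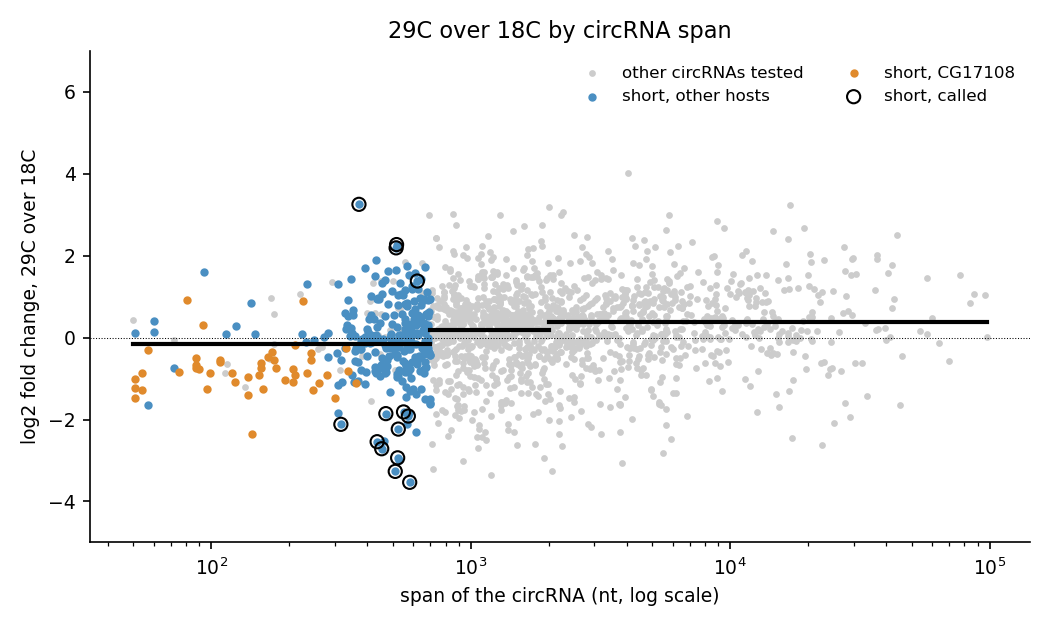
Log2 fold change of 29C over 18C (y axis) against span (x axis, log scale) for the 1767 circRNAs tested. Blue and orange points are short circRNAs, rings mark the 14 called, grey points are all other circRNAs, and black bars are the medians of short (-0.15), middle (0.18) and long (0.37) circRNAs.

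A single coding exon of Ndae1 (chr2L:7234527-7234997, minus strand), the gene of a sodium-driven anion exchanger, had 21.2, 27.2 and 27.1 normalized reads at 29C, against 91.2, 72.1 and 123 at 18C. The groups did not overlap, and the circRNA fell 3.79-fold (limma, log2 fold change -1.86 ± 0.37, adjusted p = 0.0189, n = 3 each). The linear Ndae1 row was also called lower at 29C (log2 fold change -0.60, adjusted p = 0.00142), and the ratio of circRNA to host was not called (log2 fold change -1.26, adjusted p = 0.0826). A 5′ UTR exon of CG5151 (chr3L:16148408-16148958, minus strand) had 13.6, 8.71 and 16.5 normalized reads at 29C, against 45.3, 41.7 and 53.7 at 18C. These groups did not overlap either, the circRNA fell 3.62-fold (limma, log2 fold change -1.81 ± 0.38, adjusted p = 0.0256, n = 3 each), and the linear row did not pass the test (log2 fold change 0.09, adjusted p = 0.796). In the other direction, 2 coding exons of lovit (chr3L:25421161-25421783, minus strand), the gene of a vesicular histamine transporter of photoreceptors, gave 66.2, 80.6 and 66.9 normalized reads at 29C, against 30.9, 27.0 and 22.7 at 18C. All 29C libraries lay above all 18C libraries, 2.65-fold on average (limma, log2 fold change 1.38 ± 0.32, adjusted p = 0.0352, n = 3 each), with a linear log2 fold change of 0.21 (adjusted p = 0.36). The call was lost for the lovit circRNA without any 1 of the 6 libraries, for Ndae1 without any except 18C replicate 2 and for CG5151 without any except 29C replicate 3, while none changed sign.

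The calls at lower levels rested on few reads. Oamb, an octopamine receptor gene, had a circRNA at 0, 0 and 0 normalized reads at 29C, against 6.17, 6.64 and 7.16 at 18C, and sm, the gene of an hnRNP L homologue, had 1 at 0, 0 and 0 at 29C, against 5.49, 4.27 and 4.77 at 18C. The circRNA of CG31663 was at 0, 0 and 0 at 29C, against 6.86, 5.22 and 4.77 at 18C, and that of CG12054 at 0, 0 and 0 at 29C, against 10.98, 9.01 and 11.93 at 18C. All 4 were at 0 in every 29C library, where 3 reads equal 2.26 to 3.27 normalized reads. The circRNA of heph, the gene of a polypyrimidine tract-binding protein, stood at 6.79, 8.71 and 7.52 normalized reads at 29C, against 1.37, 1.42 and 0 at 18C. In the ratio of circRNA to linear host, 1 short circRNA was called higher (background 1.75%) and 6 lower (background 0.905%) at 29C. The higher ratio was that of heph (limma, log2 fold change 2.19 ± 0.51, adjusted p = 0.0360), lost in each of 8 alternatives, and the lower ratios were those of CG12054, CG32809, Oamb, sm and CG31663, each from a circRNA that passed the filter only through 18C, and that of CG5151 (log2 fold change -1.90, adjusted p = 0.0403). The ratio call of CG32809 (limma, adjusted p = 0.0498) was also lost in each of 8 alternatives. The number of level calls was 5, 4 and 7 without 29C replicates 1, 2 and 3, and 4, 8 and 4 without 18C replicates 1, 2 and 3. The number of ratio calls was 3, 0 and 4 without 29C replicates 1, 2 and 3, and 2, 4 and 3 without 18C replicates 1, 2 and 3.

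**Figure D5:**
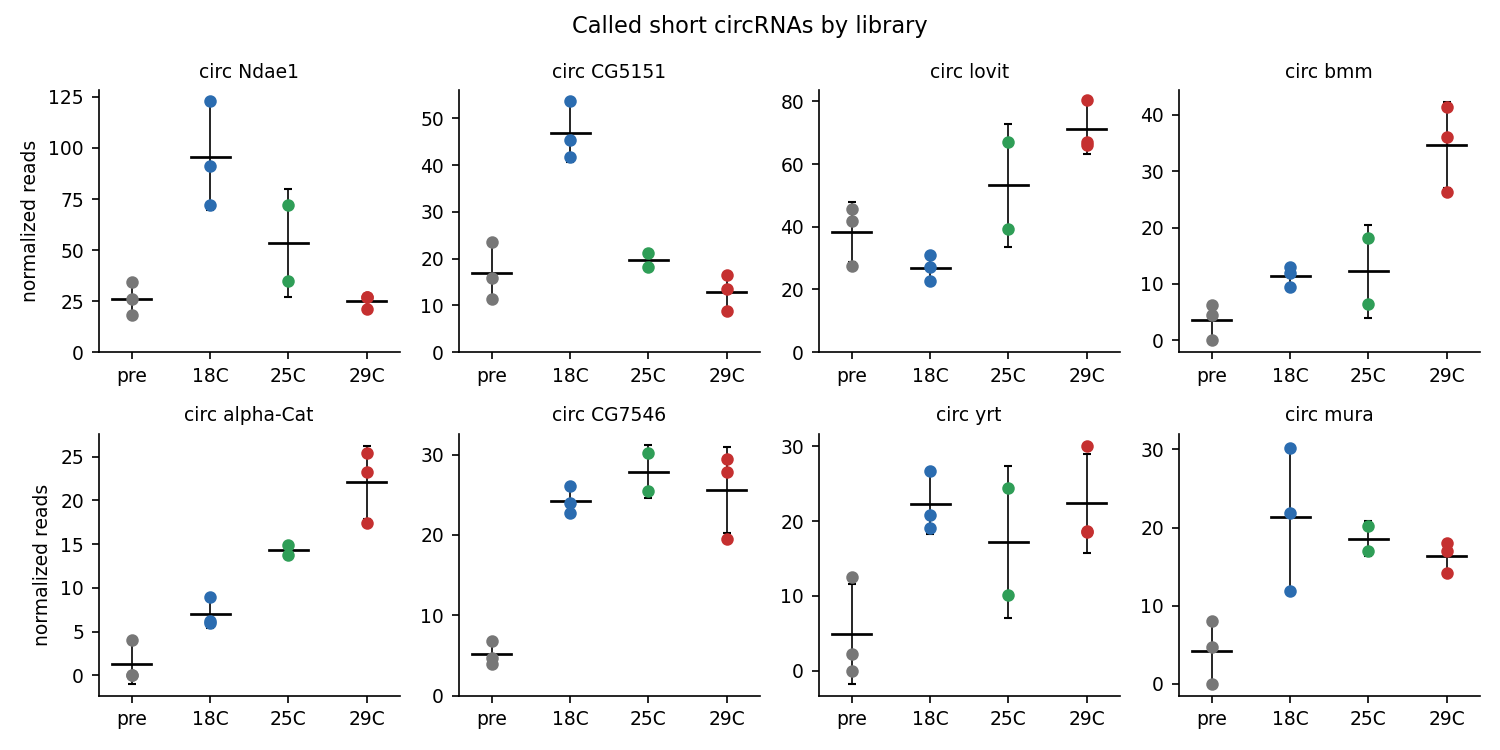
Normalized reads of 8 short circRNAs with a mean of 10 or more that were called in at least 1 comparison, by group (pre is pre-treatment). Points are libraries, horizontal bars group means and vertical bars ± SD (n = 3, and n = 2 at 25C). Ndae1 and CG5151 are highest at 18C, while lovit, bmm and alpha-Cat are highest at 29C.

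Heads after 10 days at 25C were compared with pre-treatment heads, which gives the change over the same time without a shift in temperature. Of 313 short circRNAs, 8 were called higher at 25C (background 3.85%) and 0 lower (background 0%), and edgeR and DESeq2 also called 0 lower. In limma 37 of the 313 had an unadjusted p under 0.05 in either direction, against 391 of all 1767 circRNAs. Of the 8, 2 passed the filter only through 25C. The median log2 fold change was 0.46, or 0.48 without CG17108, compared with 0.75 for all circRNAs. Without pre-treatment replicate 2 it was -0.17 for short circRNAs and 0.36 for all, so the direction for short circRNAs turned. In that fit the median was only -0.02 for short circRNAs without CG17108, against -1.04 for those of CG17108. The direction also turned without 25C replicate 2 (-0.07, and 0.56 for all), where the median without CG17108 was 0. The median of short circRNAs was 1.07 without 25C replicate 1 (1.01 for all) and 0.79 without pre-treatment replicate 3 (0.88 for all). With each library at the same circRNA total the median of short circRNAs was 0.00369 and that of all circRNAs 0.28. CG7546 (chr3L:7513818-7514354, plus strand) had 30.2 and 25.5 normalized reads in its circRNA at 25C, against 4.71, 6.84 and 3.99 in pre-treatment heads, without overlap and 5.38-fold higher (limma, log2 fold change 2.25 ± 0.40, adjusted p = 0.0195, n = 2 against 3). The circRNA of alpha-Cat (chr3L:23318895-23319474, minus strand), the α-catenin gene of cell junctions, had 13.7 and 14.9 normalized reads at 25C, against 0, 0 and 3.99 in pre-treatment heads (limma, log2 fold change 3.16 ± 0.72, adjusted p = 0.0342). The alpha-Cat circRNA had 1 end away from an annotated exon end. The other 6 calls had means under 10, with all 3 pre-treatment libraries at 0, where 3 reads equal 3.42 to 5.98 normalized reads. Among ratios, 8 were called higher (background 2.72%) and 0 lower (background 0%), led by alpha-Cat (log2 fold change 3.22), dlp, a glypican gene (3.19), Rgk1, a small GTPase gene (2.88), PIP5K59B, a phosphatidylinositol phosphate kinase gene (2.86), and dpr15, an immunoglobulin-domain gene of neuronal surfaces (2.30). Those of PIP5K59B and dpr15 passed the filter only through 25C. No level and no ratio was called without either 1 of the 25C libraries. Without pre-treatment replicates 1, 2 and 3 the level calls numbered 23, 6 and 14 and the ratio calls 26, 5 and 14.

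In 29C heads compared with pre-treatment heads, 29 of 313 short circRNAs were called higher (background 19.1%) and 0 lower (background 0.113%). Both edgeR and DESeq2 also called 0 lower. In limma 66 of the 313 had an unadjusted p under 0.05 in either direction, against 648 of all 1767 circRNAs. The share of short circRNAs called higher was 9.27%, compared with 17.4% of middle and 23.5% of long circRNAs, and the median log2 fold change was 0.50 for short, 0.92 for middle, 1.17 for long and 0.93 for all circRNAs. Without pre-treatment replicate 2 the medians were 0.05, 0.54, 0.84 and 0.58, in the same order. That fit called 25 short circRNAs higher and 5 lower, and 282 higher and 18 lower over all 1767 circRNAs. For short circRNAs of hosts other than CG17108 the median was 0.59 (0.17 without pre-treatment replicate 2). The median of short circRNAs was 0.77 without pre-treatment replicate 1 (1.12 for all) and 0.94 without pre-treatment replicate 3 (1.06 for all). With each library at the same circRNA total, 12 short circRNAs were called higher and 11 lower, against 29 and 0, and the median of short circRNAs was -0.00431. Over all circRNAs the same scaling gave 131 higher and 32 lower, against 338 and 2. Of the 29, 16 had a mean of 10 or more, 10 had no read in any pre-treatment library and 4 passed the filter only through 29C. The alpha-Cat circRNA had 25.5, 17.4 and 23.3 normalized reads at 29C, against 0, 0 and 3.99 in pre-treatment heads (limma, log2 fold change 3.74 ± 0.64, adjusted p = 0.00328, n = 3 each). The circRNA of bmm (chr3L:14777339-14777766, minus strand), the gene of the triglyceride lipase Brummer, had 26.3, 41.4 and 36.1 normalized reads at 29C, against 6.29, 4.56 and 0 in pre-treatment heads (limma, log2 fold change 3.35 ± 0.68, adjusted p = 0.00629). Neither pair of groups overlapped, and both calls held in all 14 alternatives. The linear bmm row was called higher too (log2 fold change 1.19, adjusted p = 4.92e-05), and the ratio for bmm was still called (log2 fold change 2.16, adjusted p = 0.0306).

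The circRNA of yrt (chr3R:13430923-13431353, minus strand), the gene of a FERM-domain protein of epithelial polarity, had 18.7, 18.5 and 30.1 normalized reads at 29C, against 12.6, 2.28 and 0 in pre-treatment heads (limma, log2 fold change 2.69 ± 0.74, adjusted p = 0.0251). A circRNA of Tomosyn (514 nt, chrX:12648537-12649050), the gene of a SNARE-binding regulator of transmitter release, had 14.4, 14.2 and 9.77 normalized reads at 29C, against 0, 0 and 12.0 in pre-treatment heads (limma, log2 fold change 2.53 ± 0.82, adjusted p = 0.0467). Tomosyn overlapped between the groups through pre-treatment replicate 3, and its call was lost in 12 of 14 alternatives, among them without pre-treatment replicates 1 and 2 and without any 1 of the 29C libraries. The yrt call was lost in 6 of 14 alternatives, namely without any 1 of the 29C libraries, in edgeR, with only the 2 groups and with libraries at the same circRNA total. In the ratio to the linear host, 26 were called higher (background 18.7%) and 0 lower (background 0%). The 5 largest were alpha-Cat (log2 fold change 3.80), Coq7, a ubiquinone synthesis gene (3.74), Rgk1 (3.11), heph (2.91) and Rgk3, another RGK-type GTPase gene (2.80), and the last 4 had no read in any pre-treatment library. Of the 26, 5 passed the filter only through 29C, among them those of Coq7 and Rgk3. Level calls numbered 13, 11 and 11 without 29C replicates 1, 2 and 3, and 45, 30 and 49 without pre-treatment replicates 1, 2 and 3. Ratio calls numbered 11, 10 and 8 without 29C replicates 1, 2 and 3, and 47, 25 and 43 without pre-treatment replicates 1, 2 and 3.

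In 18C heads compared with pre-treatment heads, 25 of 313 short circRNAs were called higher (background 9.62%) and 1 lower (background 0.113%). The medians of the log2 fold change were 0.73 for short and 0.76 for all circRNAs, and 0.11 and 0.35 without pre-treatment replicate 2. For short circRNAs of hosts other than CG17108 the median was 0.69 (0.17 without pre-treatment replicate 2). Of the 26, 7 had a mean of 10 or more, 10 passed the filter only through the group in which they were higher, and 12 of the 25 higher had no read in any pre-treatment library. CG7546 had 24.0, 26.1 and 22.7 normalized reads at 18C, against 4.71, 6.84 and 3.99 in pre-treatment heads (limma, log2 fold change 2.06 ± 0.36, adjusted p = 0.00733, n = 3 each), without overlap and called in all 14 alternatives. The circRNA of mura (chr3R:9546798-9547370, minus strand), a gene of a RING-finger protein, had 30.2, 21.8 and 11.9 normalized reads at 18C, against 4.71, 0 and 7.98 in pre-treatment heads (limma, log2 fold change 2.50 ± 0.69, adjusted p = 0.0385). The yrt circRNA had 26.8, 20.9 and 19.1 at 18C, against 12.6, 2.28 and 0 in pre-treatment heads (limma, log2 fold change 2.70 ± 0.74, adjusted p = 0.0385), and that of alpha-Cat 8.92, 6.17 and 5.97 at 18C, against 0, 0 and 3.99 in pre-treatment heads (limma, log2 fold change 2.21 ± 0.64, adjusted p = 0.0469). None of these 3 overlapped, but each lost its call without any 1 of the 18C libraries, yrt also without pre-treatment replicates 2 and 3 and alpha-Cat without pre-treatment replicates 1 and 2. Counting every alternative, the call was lost in 11 of 14 for yrt, 12 of 14 for alpha-Cat and 7 of 14 for mura. Among ratios, 19 were called higher (background 7.72%) and 0 lower (background 0%), the 5 largest in a longer circRNA of Tomosyn (646 nt, with the same start, log2 fold change 3.13), Oamb (3.00), dlp (2.95), CG12054 (2.88) and beat-Ic, an immunoglobulin-domain gene of axon guidance (2.77). Of the 19, 8 passed the filter on low values only through 18C, among them those of Oamb, CG12054 and beat-Ic. Level calls numbered 10, 11 and 9 without 18C replicates 1, 2 and 3, and 44, 17 and 33 without pre-treatment replicates 1, 2 and 3. Ratio calls numbered 3, 9 and 3 without 18C replicates 1, 2 and 3, and 42, 15 and 28 without pre-treatment replicates 1, 2 and 3. The 3 comparisons with pre-treatment heads share the same 3 libraries. Some marker levels also differed between these groups. Act88F averaged 1006 normalized reads in pre-treatment heads, 788 at 18C, 251 at 25C and 92.2 at 29C. In the same order Gat averaged 8234, 7661, 4978 and 3628, and the fat body gene to 51891, 153469, 51401 and 26087. Other markers of these tissues did not all follow. In that order fln averaged 114.6, 147.1, 103.9 and 117.6, repo 5710, 6569, 5857 and 5139, and Lsp2 4651, 4791, 3068 and 2669. Eaat1 was lower at 25C and 29C, as Gat was (30138.5, 30763.1, 22606.5 and 20533.5). The part of these markers in the circRNA values was not tested.

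Against 25C, warmth and cool each gave almost no call, with 2 libraries at 25C. For 29C vs 25C, limma called 0 of 313 short circRNAs higher (background 0.0566%) and 0 lower (background 0%). In limma 8 of the 313 had an unadjusted p under 0.05, against 75 of all 1767 circRNAs. On recovered reads edgeR and DESeq2 also called 0, with 6 and 7 at an unadjusted p under 0.05. The ratio gave 0 higher (background 0.0604%) and 0 lower (background 0%) by limma. There 12 had an unadjusted p under 0.05, against 67 of 1657 over all circRNAs with a host row. The 5 members with a mean of 10 or more and the smallest unadjusted p, none of which passed, were Ndae1 (log2 fold change -0.98), Damm (1.49), sxc, the O-GlcNAc transferase gene (1.20), bmm (1.56) and Nckx30C, a sodium-calcium-potassium exchanger gene (-1.22). The Nckx30C circRNA had 17.8, 19.6 and 17.3 normalized reads at 29C, against 22.0 and 86.1 at 25C, where the spread between the 25C libraries was wide. For 18C vs 25C, 2 were called higher (background 0.17%) and 0 lower (background 0%), in sm (5.49, 4.27 and 4.77 normalized reads at 18C, 0 and 0 at 25C) and CG31663 (6.86, 5.22 and 4.77 at 18C, 0 and 0 at 25C), both through the 18C libraries alone. The same 2 were called in the ratio (background 0.121% higher and 0% lower), but in no fit that left out 1 of the 5 libraries. Both level calls were lost with only the 2 groups in the fit, in edgeR, in DESeq2 and with circRNAs and linear genes in 1 fit. The 5 with a mean of 10 or more and the smallest unadjusted p, none of which passed, were CG14441 (log2 fold change 1.68), CG5151 (1.20), lovit (-0.92), another circRNA of CG17684 (-0.92) and Ndae1 (0.88). Across the temperatures, the circRNA of CG5151 averaged 46.9 ± 6.14 normalized reads at 18C, 19.8 ± 2.09 at 25C and 12.9 ± 3.95 at 29C (SD, n = 3, 2 and 3), and that of lovit 26.9 ± 4.10, 53.2 ± 19.5 and 71.2 ± 8.10 in the same order.

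The hosts were next grouped by function, and calls are given for 29C vs 18C (background over all circRNAs 2.43% higher and 1.47% lower) and then for 29C vs pre-treatment (background 19.1% higher and 0.113% lower). Many hosts are in no list, and the size of a list follows from which hosts were put in it. Each list holds few members, and no list was tested as a group. The counts include called members that passed the filter on low values only through the group in which they were higher. The list of ion channels and transmitter-gated receptors, which also included the GTPase genes Rgk1 and Rgk3, held 19 short circRNAs in 15 hosts. Of these, 18 were tested. None was called for 29C vs 18C (median log2 fold change 0.08) and 4 of 18 were called higher for 29C vs pre-treatment (background 19.1%). The 4 were in the GTPase genes Rgk1 and Rgk3, in slo, a calcium-activated potassium channel gene, and in NaCP60E, a voltage-gated channel gene. That of Rgk3 passed the filter on low values only through 29C. The NaCP60E circRNA had 26.3, 39.2 and 28.6 normalized reads at 29C, against 20.4, 5.70 and 14.0 in pre-treatment heads, without overlap. The most abundant of this list was that of Ca-alpha1D, an L-type calcium channel gene (mean 67.0). Ion and solute transporters held 17, all tested, with 2 higher (both in lovit) and 1 lower (Ndae1) for 29C vs 18C and 2 higher (also in lovit, 1 of them another circRNA) for 29C vs pre-treatment. G protein coupled receptors and their signalling held 17, with 0 higher and 1 lower (Oamb) for 29C vs 18C and 1 higher for 29C vs pre-treatment, in Octbeta2R, another octopamine receptor gene.

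Cell adhesion and axon guidance genes held the most members of the lists, 29 in 24 hosts with 28 tested, of which 0 were higher and 2 lower for 29C vs 18C (beat-Ic and dpr15) and 0 were called for 29C vs pre-treatment. Its most abundant circRNAs were those of Sema2b (mean 99.6), klg, a cell adhesion gene (60.9), and side-III, a gene of the sidestep family (58.5). Presynaptic release genes held 8, with none called for 29C vs 18C and 1 higher (Tomosyn) for 29C vs pre-treatment, and the brp circRNA of 51 nt was their most abundant. RNA-binding protein genes held 15, with 2 higher (heph and Sxl) and 1 lower (sm) for 29C vs 18C, all with means under 10, and 2 higher (heph and sm) for 29C vs pre-treatment. Transcription and chromatin genes held 25, with 0 higher and 1 lower (sbb) for 29C vs 18C and 2 higher (osa and NFAT) for 29C vs pre-treatment.

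Metabolism and nutrient signalling genes held 12 short circRNAs with 11 tested. None was called for 29C vs 18C, and 4 of 11 were called higher for 29C vs pre-treatment (background 19.1%), in bmm, ACC, the acetyl-CoA carboxylase gene of fatty acid synthesis, SCAP, an activator of the SREBP pathway, and Coq7. That of Coq7 passed the filter on low values only through 29C and had no read in any pre-treatment library. The ACC circRNA had 39.9, 52.3 and 56.4 normalized reads at 29C, against 25.1, 11.4 and 33.9 in pre-treatment heads, and the SCAP circRNA had 17.0, 26.1 and 28.6 at 29C, against 9.43, 5.70 and 3.99 in pre-treatment heads. Neither overlapped, and the median log2 fold change of the list was 1.17, compared with 0.93 for all circRNAs. Cytoskeleton and cell junction genes held 14, with none called for 29C vs 18C and 2 higher (yrt and alpha-Cat) for 29C vs pre-treatment, beside p120ctn, their most abundant. For 25C vs pre-treatment (background 3.85% higher) 1 member was called higher in each of 6 lists (Rgk1, lovit, Octbeta2R, dpr15, heph and alpha-Cat) and none in the other 3. For 18C vs pre-treatment (background 9.62% higher) the calls, all higher, were Rgk1, slo, Ndae1, Octbeta2R, Oamb, beat-Ic, dpr15, Tomosyn, sm, chinmo, sbb, yrt and alpha-Cat.

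Several hosts gave more than 1 short circRNA. The 3 of lovit lay far apart in a gene with long introns, at chr3L:25303603-25304278, chr3L:25421161-25421783 and chr3L:25635935-25636450, with means of 35.4, 46.9 and 2.38 normalized reads. All 3 had higher means at 29C than at 18C, and 2 of them were called. The first had 61.1, 50.1 and 53.4 normalized reads at 29C, against 24.7, 33.7 and 17.9 at 18C, without overlap but above the adjusted p threshold. The 3 of Dbp80 had means of 153, 61.9 and 13.4, the 3 of Parp, the poly(ADP-ribose) polymerase gene, 53.4, 39.6 and 17.4, the 3 of cnc, a transcription factor gene of the oxidative stress response, 40.8, 20.9 and 9.86, and the 3 of SK, a calcium-activated potassium channel gene, 11.1, 8.01 and 7.10. None of the circRNAs of Dbp80, Parp, cnc and SK, and none of the 4 of uex (6.18 to 117.8), was called in the comparisons of 29C with 18C or of any exposure with pre-treatment. Of the 3 of sm (27.6, 10.1 and 1.32), the least abundant was lower for 29C vs 18C and the most abundant higher for 29C vs pre-treatment. Of the 236 hosts, 122 also had a circRNA outside the short class, and in 52 of these the most abundant circRNA was a short one.

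Linear rows of the hosts were tested in the same comparisons. Of 229 hosts of tested short circRNAs, the linear row was called higher in 2 (background over the 12676 linear rows with a mean of 10 or more 5.36%) and lower in 5 (5.29%) for 29C vs 18C, higher in 7 (5.92%) and lower in 12 (6.89%) for 29C vs pre-treatment, higher in 7 (4.69%) and lower in 2 (4.44%) for 18C vs pre-treatment, and higher in 5 (2.77%) and lower in 2 (2.66%) for 25C vs pre-treatment. For 29C vs 18C, 2 of the 10 lower circRNAs had a linear row called lower as well, and for 29C vs pre-treatment 2 of the 29 higher circRNAs had a linear row called higher. The median log2 fold change of the ratio of circRNA to host was 0.07 for 29C vs 18C, compared with 0.26 for all circRNAs with a host row. For 29C vs pre-treatment it was 0.71, compared with 1.00. Without CG17108 the medians of short circRNAs were -0.01 and 0.68, so the sign for 29C vs 18C depended on CG17108.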

How the data were processed

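Total RNA of heads was ribodepleted and sequenced as directional libraries. The authors aligned linear reads to dm6 with STAR, counted genes with featureCounts, used find_circ2 for head-to-tail junctions, and applied 1 DESeq2 size factor per library to circRNAs and linear genes together. The deposited signal values are these normalized reads, and the versions are not given in the sources used here. Expressed in units of 1 read per library, 100% of values were whole within 0.01.

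Exons were taken from the Ensembl annotation of the dm6 assembly, with the host matched by symbol for 322 short circRNAs and by an older name for 7. CircRNAs of 50 nt or more were tested when all libraries of 1 group exceeded 3 (1767 circRNAs, 313 short), as log2(value + 1) in limma 3.58.1 (R 4.3.3, intensity trend, 11 libraries, Benjamini-Hochberg), and called where the adjusted p was below 0.05 and log2 fold change exceeded 0.5 in either direction. Fold changes given as log2 are on this scale and understate changes of low circRNAs. The ratio test used log2 circRNA minus log2 host for hosts with a mean of 10 or more (1657 circRNAs). Folds are ratios of group means. The p-values reflect only how far these samples vary, which may be technical. The scripts were tested on simulated data, and edgeR 4.0.16 and DESeq2 1.42.0 were run on recovered reads. Named members were the 10 highest means and host ratios, the largest called changes with a mean of 10 or more, the 5 largest called ratios, where under 3 were called the 5 smallest p, the 3 highest of each host list and of hosts with 3 or more members, and those nearest the span limits. Called members with a mean under 10 and called members of the host lists were also named, after their values were seen. Members and lists were chosen with earlier results of these data known. No genome sequence was used here.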

Additional observations from a re-analysis of the deposited data

Results flagged for a closer look

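CircRNA entries with a span under 50 nt were left out of the members and of all tests. They hold a signal that no comparison above uses. There were 91 of them, with a summed signal of 1573 normalized reads on average per library (923 to 2058). The table named no host for 34, and 8 were in CG17108. The most abundant, with a span of 8 nt and no named host, had a mean of 169 normalized reads. Exon boundaries were used at both ends by 2 of the 91, and the span was a multiple of 3 in 55.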

How the results depend on the processing

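Calls of short circRNAs depended on the fit, and the cause of each shift was not tested. For 29C vs 18C the 14 calls became 24 with libraries at the same circRNA total, 62 with only the 2 groups and 5 in edgeR. They became 19 in DESeq2 (10 higher and 9 lower, against 4 and 10) and 9 with the replicate block. A joint fit of circRNAs and linear genes (chosen after seeing the data) gave 7. Over all circRNAs the 43 higher and 26 lower became 37 and 47 at the same circRNA total and 291 and 134 with only the 2 groups. Over all circRNAs edgeR called 21 higher and 5 lower, and DESeq2 98 and 36. For 25C vs pre-treatment the 8 calls became 1 in edgeR, 5 in DESeq2, 5 in the joint fit and 0 with the replicate block. For 29C vs pre-treatment the 29 calls became 12 with only the 2 groups and 11 in edgeR, and for 18C vs pre-treatment the 26 became 16 with only the 2 groups, 1 in edgeR and 10 in DESeq2. For 18C vs 25C the 2 calls became 0 with only the 2 groups, in edgeR, in DESeq2 and in the joint fit. Ratio calls for 29C vs 18C were 4 at a pseudocount of 0.5 and 4 with the replicate block, against 7. The ratio calls for 25C vs pre-treatment (8) and 18C vs 25C (2) were 0 with the block. The deviations of same-numbered libraries from their group means had correlations of -0.29 to 0.29, above 0.1 in 5 of 15 pairs. With 2 or 3 libraries per group these deviations are constrained, so they cannot show whether same-numbered libraries were paired.

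Without single libraries, level calls ranged over 4 to 8 (29C vs 18C), 0 to 23 (25C vs pre-treatment), 11 to 49 (29C vs pre-treatment), 9 to 44 (18C vs pre-treatment), 0 to 0 (29C vs 25C) and 2 to 3 (18C vs 25C). Ratio calls ranged over 0 to 4, 0 to 26, 8 to 47, 3 to 42, 0 to 0 and 0 to 0 in the same order. The ratio of summed short circRNA signal was 0.94 for 29C vs 18C (0.854 to 1.049), 1.09 for 25C vs pre-treatment (0.716 to 1.5), 1.09 for 29C vs pre-treatment (0.834 to 1.51), 1.16 for 18C vs pre-treatment (0.887 to 1.61), 1.01 for 29C vs 25C (0.750 to 1.53) and 1.07 for 18C vs 25C (0.797 to 1.62). Of 36 named called values, 9 stayed called in every alternative, 27 were lost in at least 1 and 0 changed sign. At the median of 108 reads over 11 libraries a short circRNA holds about 10 reads per library, which limits single calls.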
